A study of Danio rerio with 3 samples.

Results

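The genes described here are 7 enzymes that make or use glutamine and glutamate in the zebrafish liver: glula, glulb, glud1b, got1, got2a, got2b and gpt2l. They were taken by name, and all 7 were listed in each of the 3 libraries, among 14713 (HepABC HCC), 12804 (CreLox HCC) and 12386 (no HCC) genes, with 11233 listed throughout. Their values were read in 2 kinds of cells: those with 10000 or more unique molecular identifiers (UMIs), called deep cells here, and those under 5000 UMIs, split by which of c1qb, ccl38.6 and tmem88a had a UMI.

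Single-cell RNA sequencing had been done on 1 liver per group from male fish 6 months after fertilization, part of each liver having gone to histology. The HepABC HCC fish carried Tg(fabp10a:pt-β-cat), which makes activated Xenopus β-catenin, together with the Wnt reporter Tg(7xTCF-Xla.Siam:mCherry), and had no larval treatment. The CreLox HCC fish carried fabp10a:CreERT2 and fabp10a:flox-pt-β-cat, so that Cre switches on the same β-catenin, and had been given 10 µM 4-hydroxytamoxifen from day 3 to day 6. The no HCC fish carried fabp10a:flox-pt-β-cat without Cre, had the same 4-hydroxytamoxifen treatment and had no hepatocellular carcinoma (HCC). The fabp10a promoter is active in hepatocytes, so the β-catenin and Cre transgenes are not driven in other liver cells. The Wnt reporter of the HepABC fish is not under that promoter. The Wnt reporter, the missing treatment and the HCC of the HepABC fish cannot be told apart, and each group is 1 animal. The HepABC HCC and CreLox HCC livers are called HepABC and CreLox for short.

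Glutamine synthetase, encoded in zebrafish by genes that include glula and glulb, joins ammonia to glutamate. In the mammalian liver it is made by hepatocytes around the central vein and is a well-known target of Wnt/β-catenin signalling. Glutamate dehydrogenase (glud1b) releases ammonia from glutamate in mitochondria. The aspartate aminotransferases (got1 in the cytosol, got2a and got2b in mitochondria) and alanine aminotransferase (gpt2l) move the amino group of glutamate to and from other amino acids.

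The libraries held 2866 cells and 47680774 UMIs in HepABC, 2112 cells and 9066031 UMIs in CreLox, and 1077 cells and 5404507 UMIs in no HCC. Deep cells numbered 1938, 186 and 213 in that order of libraries, and 1 to 8 cell barcodes were shared by any pair of libraries. All 12 genes of the hepatocyte list had UMIs in deep cells of every library, with a summed level of 135862 to 230656 CPM (the usual counts-per-million scale, over all UMIs of the same cells), against 3.40 to 18.9 CPM for the endothelial list and 22.3 to 79.6 CPM for the stellate list. Cells with only c1qb carried the macrophage list at 45893 to 66108 CPM, and cells with only tmem88a carried the endothelial list at 3467 to 4307 CPM. These sums include c1qb and tmem88a themselves, so part of each follows from the choice of cells. UMIs of 2 or more genes of the list were seen in at least 93.4% of c1qb cells and 91.7% of tmem88a cells in each library. Every class also carried hepatocyte RNA, with fabp10a, the hepatocyte fatty acid binding protein, at 10117 CPM or more in the classes described here. No test could be run on 1 library per group. Brackets give exact 95% intervals, which cover counting error only and are too narrow where a few cells hold many of the UMIs.

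In deep cells glula was high in HepABC, lower in CreLox and close to absent in no HCC. It had 36.6 CPM in HepABC (34.9 to 38.5, 1595 UMIs), 15.03 CPM in CreLox (11.8 to 18.9, 74 UMIs) and 3.96 CPM in no HCC (2.17 to 6.65, 14 UMIs). The intervals of the 3 libraries did not overlap. The ratio was 9.24 for HepABC over no HCC (5.49 to 16.9), 3.79 for CreLox over no HCC (2.12 to 7.27) and 2.44 for HepABC over CreLox (1.93 to 3.12). With cells from 5000 UMIs the ratios to no HCC were 3.32 (2.47 to 4.56) for HepABC and 1.57 (1.09 to 2.28) for CreLox. From 20000 UMIs, where no HCC had 3 glula UMIs, they were 11.6 (3.94 to 56.1) and 2.80 (0.883 to 14.2), and the interval of CreLox held 1. Because a cell with more UMIs is more likely to show a gene, each deep cell was also thinned to 10000 UMIs. A glula UMI was then seen in 26.3% of cells in HepABC (24.3 to 28.3), 10.8% in CreLox (6.69 to 16.1) and 3.76% in no HCC (1.64 to 7.27), against 44.4%, 19.9% and 5.16% before thinning.

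The second glutamine synthetase gene, glulb, had another order. Its level in deep cells was 1.24 CPM in HepABC (0.932 to 1.62, 54 UMIs), 15.6 CPM in CreLox (12.3 to 19.5, 77 UMIs) and 0.566 CPM in no HCC (0.0686 to 2.05, 2 UMIs). CreLox thus stood alone among deep cells, at a ratio of 27.6 over no HCC (7.39 to 232), while HepABC over CreLox was 0.0793 (0.0549 to 0.114). With cells from 5000 UMIs the ratio of CreLox to no HCC was 5.94 (3.26 to 11.9), below the first value. The deep level of CreLox also lay inside the interval of its cells under 5000 UMIs with only ccl38.6 (10.1 CPM, 2.75 to 25.9, 4 UMIs). The CreLox UMIs were spread over 49 of 186 cells with at most 5 in 1 cell, whereas the 54 in HepABC lay in 27 of 1938 cells, 8 of them in 1 cell. Thinned shares of cells were 0.826%, 12.9% and 0.939% in HepABC, CreLox and no HCC. The 3′ tags count 1 end of a transcript whatever its length, and of the UMIs of both genes glula took 96.7% in HepABC (95.7 to 97.5), 49.0% in CreLox (40.8 to 57.3) and 87.5% in no HCC (61.7 to 98.4, 16 UMIs). In CreLox 26 deep cells had glula only, 38 had glulb only and 11 had both. As close paralogs the genes may have shared or lost reads in the counting, which was not tested, so the split between them is uncertain.

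**Figure D1:**
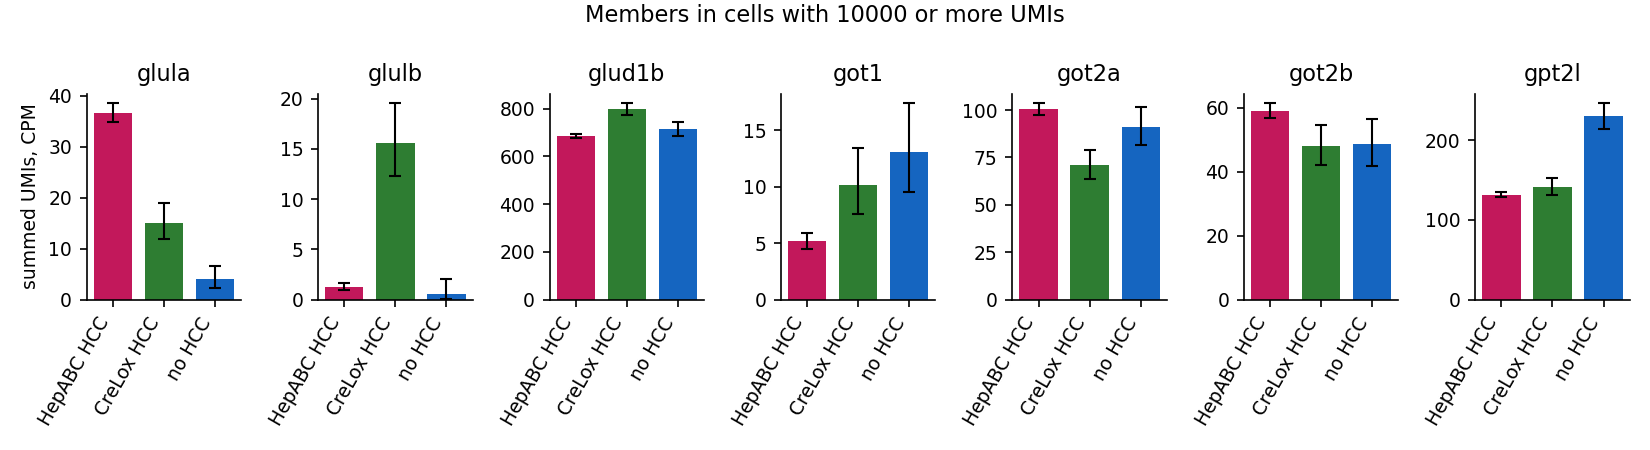
Summed level in cells with 10000 or more UMIs, in CPM, for each of the 7 genes. Bars are the 3 libraries (HepABC, CreLox, no HCC, 1 liver each), lines are exact 95% Poisson intervals, and each panel has its own axis from 0. glula falls across the libraries from left to right (36.6, 15.03 and 3.96 CPM), glulb is high in CreLox alone (15.6 CPM), and gpt2l is highest in no HCC (230.2 CPM).

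The other genes of the group differed less. glud1b was abundant in all 3 libraries, with 684 CPM in HepABC, 797 CPM in CreLox and 715 CPM in no HCC, and had a UMI in at least 98.4% of deep cells of each. HepABC over no HCC was 0.957 (0.919 to 0.997), and CreLox over no HCC was 1.12 (1.06 to 1.17), which turned to 0.786 with TMM scaling (trimmed mean of M values, which sets the bulk of genes to equal levels). gpt2l was lower in both HCC libraries, at 132 CPM in HepABC and 142 CPM in CreLox, against 230.2 CPM in no HCC. Its ratios to no HCC were 0.573 (0.532 to 0.617) and 0.617 (0.557 to 0.683), and the HCC libraries differed from each other by a ratio of 0.928 (0.858 to 1.01).

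Among the aspartate aminotransferases, the cytosolic got1 was a low transcript that was lowest in HepABC, at 5.17 CPM (4.51 to 5.89), against 10.2 CPM in CreLox (7.54 to 13.4) and 13.0 CPM in no HCC (9.54 to 17.4). HepABC over no HCC was 0.397 (0.288 to 0.557), and the interval of CreLox over no HCC, 0.512 to 1.19, held 1. In cells of 20000 or more UMIs these ratios were 0.714 and 1.44. The mitochondrial got2a had 100.5 CPM in HepABC, 70.9 CPM in CreLox and 91.2 CPM in no HCC. Its ratio of HepABC to no HCC was 1.103 (0.984 to 1.24) and turned to 0.869 with TMM scaling, while CreLox over no HCC was 0.777 (0.666 to 0.907). Its partner got2b had 59.1, 48.1 and 48.7 CPM, with a HepABC to no HCC ratio of 1.21 (1.04 to 1.42) that turned to 0.957 with TMM scaling and a CreLox to no HCC ratio of 0.988 (0.809 to 1.21).

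A ratio of 2 or more for HepABC over no HCC was reached by glula and glulb, 2 of the 7 genes, beside 28.4% of all 10128 genes compared, and a ratio of 0.5 or less by got1 alone, beside 11.2%. The glulb ratio of 2.19 (0.578 to 18.5) rested on 2 UMIs in no HCC and turned to 0.578 (0.313 to 1.17) with cells from 5000 UMIs. For CreLox over no HCC the counts were 2 higher, the same glula and glulb, and 0 lower, beside 29.9% and 3.03% of 7349 genes. For HepABC over CreLox glula was the 1 higher gene and glulb the 1 lower, beside 12% and 16.5% of 10526 genes. The shares of 11.2% and 16.5% can hold genes with UMIs in HepABC alone, since 0 in the smaller library was set to 3 counts. The counts of higher genes are thus near the background of these libraries. The median log2 ratio over all genes was 0.41 for HepABC over no HCC and 0.59 for CreLox over no HCC, and glula lay 2.80 and 1.33 above these medians. On the same scale gpt2l stood at -1.22 and -1.29 from them. TMM scaling brought the medians to 0.07 and 0.09. With it gpt2l, at ratios of 0.451 and 0.435, was past the fold in both comparisons and glulb, at 1.73, was no longer past it in HepABC over no HCC.

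Within the deep cells, the cell with most glula in each library carried genes of stellate cells, the pericyte-like cells that line the liver sinusoids. The stellate list was hand2, colec11, steap4, pdgfra, pdgfrb, acta2 and ifitm1. The highest cell of HepABC had 53 glula UMIs, and fabp10a made up 0.234% of its UMIs, against a median of 3.68% over deep cells of that library. It had UMIs of hand2, colec11, steap4 and ifitm1, 4 of the 6 stellate list genes listed there, while the next 4 cells by glula, with 8 to 16 UMIs, had at most 1. In CreLox the 3 highest cells held 29 of the 74 glula UMIs, and each had UMIs of 4 stellate genes. In no HCC the 2 highest cells held 5 of 14, again with 4 stellate genes each. Without the deep cells that had 2 or more stellate genes (11, 7 and 3 cells), a choice made after these cells were seen, glula was 35.4 CPM in HepABC, 8.64 CPM in CreLox and 2.58 CPM in no HCC. The ratio of HepABC to CreLox was then 4.09 (3.00 to 5.72), that of HepABC to no HCC 13.7 (7.21 to 30.1) and that of CreLox to no HCC 3.35 (1.61 to 7.85). For glulb the same step gave 0.971, 15.4 and 0.573 CPM, so the CreLox level of glulb did not rest on these cells.

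**Figure D2:**
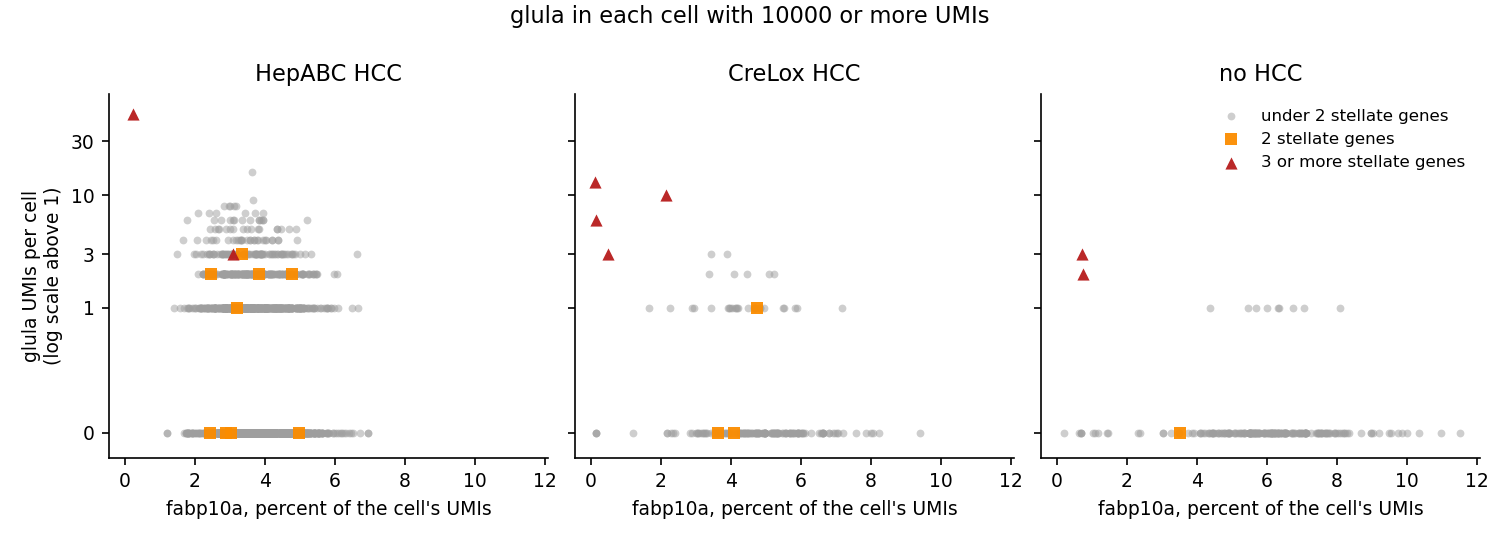
glula UMIs of each cell with 10000 or more UMIs (vertical, log scale above 1) against the percent of that cell's UMIs from fabp10a (horizontal), 1 panel per library. Points are cells, with squares for 2 and triangles for 3 or more stellate list genes with a UMI. Of the triangles, all those of no HCC, 3 of 4 in CreLox and 1 of 2 in HepABC lie below 1% fabp10a, and the cells with most glula in each library are triangles.

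The other deep cells of HepABC also differed among themselves. After thinning, 1429 of the 1938 cells had no glula UMI, 382 had 1, 82 had 2 and 45 had 3 or more, with a variance 2.28 times the mean, or 1.496 times without the highest cell. Independent counting gives about 1. In the same cells the quotient was 1.47 for glud1b, 1.14 for got2a, 1.12 for gpt2l, 1.03 for got2b and 0.9898 for got1. The quotient also depends on the mean, which was 0.377 UMIs per cell for glula and 6.71 for glud1b. It therefore does not rank these genes by spread, and only 12 cells had no glud1b UMI. Depth did not order the level in HepABC, where glula was 33.8 CPM in cells of 10000 to 15000 UMIs and 34.1 CPM in cells of 30000 UMIs or more. In CreLox it was 55.6 CPM in the 32 cells of 10000 to 15000 UMIs and 10.7 CPM in the 61 cells of 30000 or more, and the cells with 4 stellate genes described above lay between 12307 and 16358 UMIs.

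Per UMI, the class that held most glula was the cells under 5000 UMIs with only tmem88a, an endothelial marker, in all 3 libraries. It had 509 CPM in HepABC (326 to 758, 24 UMIs in 24 cells), 195 CPM in CreLox (125 to 291, 24 UMIs in 54 cells) and 172 CPM in no HCC (114 to 249, 28 UMIs in 55 cells). Over the deep cells of the same library these were 13.9 times (8.88 to 20.8), 13.0 times (7.85 to 20.9) and 43.4 times (22.1 to 89.3) as high. Between this class and deep cells, 84.7%, 62.5% and 60.6% of all genes compared were counted at a ratio of 2 or more. These shares can hold genes without any UMI in the tmem88a class, since such genes were set to 3 counts there. They therefore do not show how common such a ratio was. Over cells under 5000 UMIs with none of the 3 markers the ratios were 5.71 (3.37 to 9.41), 7.14 (4.28 to 11.6) and 6.87 (3.59 to 13.6). Beside them, 39%, 46.3% and 28.7% of genes were counted at 2 or more, with the same limit. In HepABC and no HCC the interval overlapped that of the few cells with more than 1 marker, at 242 and 93.0 CPM. In CreLox the order rested on the upper end of this depth range, since below 3000 UMIs the tmem88a class had 73.7 CPM against 90.1 CPM for the c1qb class.

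The c1qb class, whose marker is a complement chain of macrophages, came next among the marker classes in both HCC livers and was low in no HCC. Its glula was 170.1 CPM in HepABC (134 to 213, 77 UMIs), 72.9 CPM in CreLox (45.1 to 111, 21 UMIs) and 9.08 CPM in no HCC (1.1 to 32.8, 2 UMIs). The median log2 ratio over all genes between c1qb classes was 0.29 for HepABC over no HCC and 0.22 for CreLox over no HCC. Cells with a glula UMI after thinning to 1000 UMIs made up 12.6% of the class in HepABC (22 of 174 cells), 5.93% in CreLox (7 of 118) and 0 of 98 in no HCC, where 3 counts would be 3.06% of cells with a UMI at this depth, which does not limit the share of cells that express the gene. The ccl38.6 class, whose marker is a chemokine gene of the lymphocyte list, gave 3.45% (2 of 58), 0 of 208 (3 counts would be 1.44%) and 1.105% (2 of 181), at median depths of 1207, 1589 and 1267 UMIs against 2180, 1501 and 1661 UMIs in the c1qb class. In no HCC neither the c1qb class nor the deep cells, at 9.08 and 3.96 CPM, stood above the ccl38.6 class, at 13.6 CPM (3.71 to 34.9), so these low levels are not read as expression. In CreLox the deep level of 15.03 CPM lay inside the interval of the ccl38.6 class (5.05 CPM, 0.611 to 18.2) and could not be told apart from it at this depth. In HepABC 8 of the 9 glula UMIs of the ccl38.6 class lay in 1 cell with 3 or more stellate genes, and without it the class was at 9.52 CPM (0.241 to 53.0), an interval that holds the deep level of 36.6 CPM but not that of the c1qb class.

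**Figure D3:**
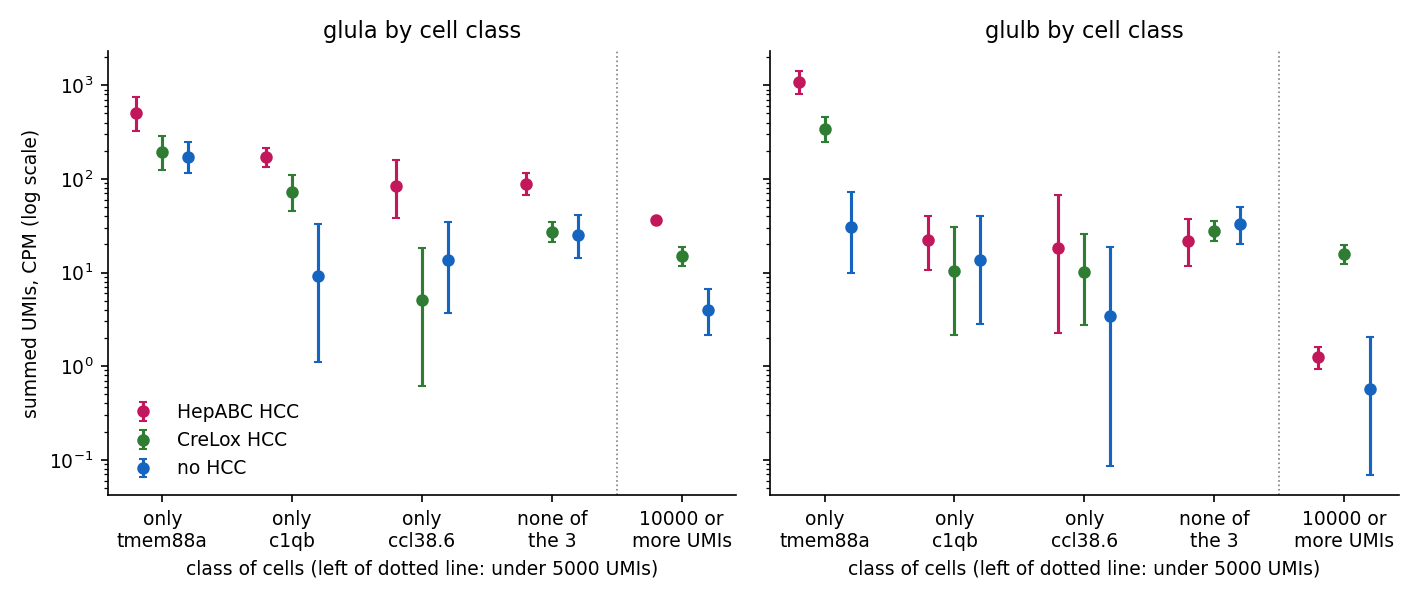
Summed glula (left panel) and glulb (right panel) in CPM, on a log axis, by class of cells: 4 classes under 5000 UMIs split by c1qb, ccl38.6 and tmem88a, then cells with 10000 or more UMIs. Points are libraries of 1 liver each and lines are exact 95% Poisson intervals. For glula the tmem88a class is the highest in each library (509, 195 and 172 CPM), while for glulb it has 1082 and 342 CPM in HepABC and CreLox, against 30.7 CPM in no HCC, where its interval overlaps that of the cells with none of the 3 markers.

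By amount, the answer was different, because classes differ in size. In HepABC the deep cells held 84.0% of all glula UMIs of the library and the tmem88a class 1.26%. Those deep cells also held 43540667 of the 47680774 UMIs of HepABC, and per UMI they had the lowest glula of its classes (36.6 CPM). In CreLox the deep cells held 34.3% and cells under 5000 UMIs with none of the 3 markers 30.1%. Of the 9066031 UMIs of all genes in CreLox, these classes held 4923946 and 2375390. In no HCC cells from 5000 up to 10000 UMIs held 30.7% and the tmem88a class 27.7%, with 13.9% in deep cells. Of the 5404507 UMIs of all genes in no HCC, these classes held 493421, 162654 and 3531546.

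glulb was likewise highest in the tmem88a class in both HCC livers. In no HCC no class was above 32.9 CPM, and the intervals of the tmem88a class and of the cells with none of the 3 markers (30.7 and 32.9 CPM) overlapped. Among the marker classes, those cells and deep cells, the tmem88a class was the highest under 5 of 7 other settings. These settings include classes from marker lists, where only the matching lists were ranked. There glulb was 29.3 CPM in endothelial list cells of no HCC, below cells of the cholangiocyte (154 CPM), erythrocyte (112 CPM) and stellate lists (66.7 CPM). The class had 1082 CPM in HepABC (51 UMIs, in 15 of 24 cells), 342 CPM in CreLox (42 UMIs, in 20 of 54 cells) and 30.7 CPM in no HCC (5 UMIs, in 4 of 55 cells). Over cells with none of the 3 markers the ratio was 49.5 in HepABC (26.5 to 99.2) and 12.3 in CreLox (8.16 to 18.4), while in no HCC it was 0.935 (0.275 to 2.55). glula therefore made up 32% of the UMIs of both genes in this class of HepABC (21.7 to 43.8) and 36.4% in CreLox (24.9 to 49.1), against 84.8% in no HCC (68.1 to 94.9). The median log2 ratio over all genes between tmem88a classes was below 0, at -0.33 for HepABC over no HCC and -0.20 for CreLox over no HCC.

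The makeup of the tmem88a class moved with these values. Cells with 2 or more stellate genes made up 4.17% of it in HepABC, 13.0% in CreLox and 38.2% in no HCC, and the summed stellate list was 233, 814 and 1586 CPM, with hand2 and acta2 among the genes at 0 in HepABC and pdgfra and acta2 in CreLox. The macrophage list moved too, at 233 CPM in HepABC, 375 CPM in CreLox and 812 CPM in no HCC, with marco, mpeg1.1, mfap4 and, by the choice of cells, c1qb at 0 in every library, and its part in these values was not tested. Without the cells with 2 or more stellate genes glula in the class was 438 CPM in HepABC, 126 CPM in CreLox and 121 CPM in no HCC, still the highest of the marker classes and of deep cells in each library. Without them glulb was 1096, 310 and 36.4 CPM in HepABC, CreLox and no HCC. Cells of the class with no stellate gene at all had glula at 466 CPM in HepABC (19 UMIs), 73.6 CPM in CreLox (6 UMIs) and 120 CPM in no HCC (8 UMIs). Cells of the c1qb class with no stellate gene had 173, 72.0 and 9.48 CPM in the same order. In CreLox the intervals of these sets (27.0 to 160 and 44.0 to 111) overlapped, so neither was seen to be higher.

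Taking cells of any depth with 3 or more stellate genes as a set of their own, again after the data were seen, gave more glula per UMI than the tmem88a class in each library. There were 11 such cells in HepABC, 30 in CreLox and 38 in no HCC. Their glula was 1203 CPM in HepABC (972 to 1473, 94 UMIs), 451 CPM in CreLox (354 to 567, 73 UMIs) and 264 CPM in no HCC (196 to 348, 50 UMIs). In no HCC this interval overlapped that of the tmem88a class (114 to 249). The 2 sets also share cells, with 1 in HepABC, 5 in CreLox and 15 in no HCC. They held 4.95% of the glula UMIs with 0.164% of all UMIs in HepABC, 33.8% with 1.79% in CreLox and 49.5% with 3.51% in no HCC. With classes set by marker lists, below 5000 UMIs, the order was the same, since the 7, 15 and 17 cells assigned by the stellate list had 1341, 569 and 267 CPM and cells assigned by the endothelial list 576, 123 and 147 CPM. In no HCC these intervals again overlapped (138 to 466 and 94.9 to 217). glulb had 333 CPM in the cells with 3 or more stellate genes of HepABC, 167 CPM in CreLox and 58.0 CPM in no HCC. In each liver most of these cells had a glula UMI (9 of 11 in HepABC, 19 of 30 in CreLox and 24 of 38 in no HCC), and in HepABC 1 cell gave 53 of the 94 UMIs.

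**Figure D4:**
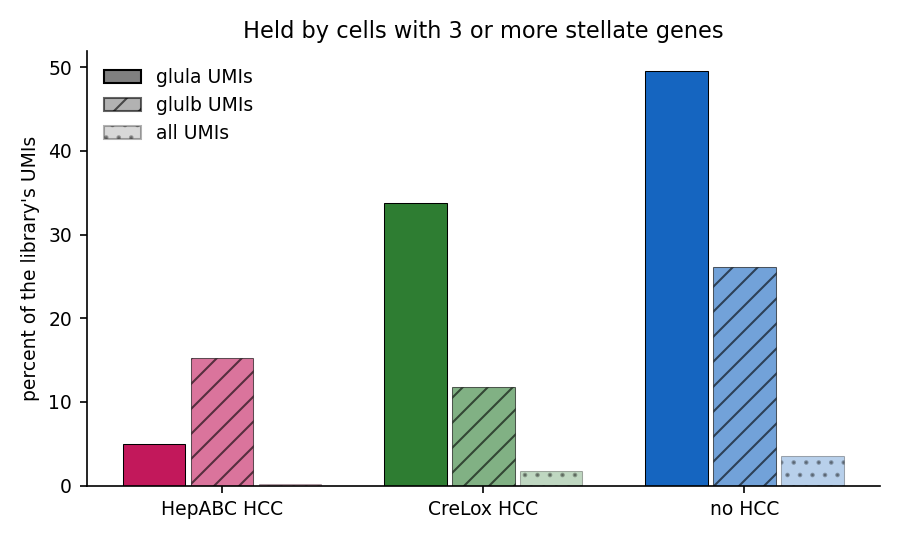
Percent of each library's glula UMIs, glulb UMIs and all UMIs held by cells with 3 or more stellate list genes (11, 30 and 38 cells in HepABC, CreLox and no HCC), from an axis that starts at 0. In CreLox and no HCC these cells hold 33.8% and 49.5% of glula with 1.79% and 3.51% of all UMIs.

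Since every class carried hepatocyte RNA, the UMIs of each gene in the 4 shallow classes of the 3 libraries were set beside the number that fabp10a would bring, in the proportion of deep cells of the same library. The interval for glula lay above that number in 11 of 12 cases and that for glulb in 9 of 12. Some glula cases were weak. In the ccl38.6 class of HepABC 8 of the 9 UMIs lay in 1 cell. The c1qb class of no HCC had 2 UMIs, with a lower limit of 0.2422 beside 0.2399 brought. The ccl38.6 class of no HCC had 4 UMIs beside 0.413 brought, and its level was the one that low levels of no HCC were set against above. In the tmem88a class glula had 24 UMIs in HepABC where 0.945 would be brought, 24 in CreLox where 0.864 would be brought and 28 in no HCC where 0.134 would be brought. For got2a and gpt2l it was otherwise: they were above in 0 of 12 cases each, and within it in 10 and 11. In the tmem88a class, for instance, got2a had 3 UMIs in HepABC beside 2.59 brought, and gpt2l had 9 in no HCC beside 7.77. got1 was within it in 12 of 12 cases, but its counts were too low to set it apart from glula. In the tmem88a class of HepABC it had 0 UMIs beside 0.133 brought, with an upper limit of 27.7-fold. The brought numbers carry the counting error of the deep cells, which is large in no HCC for glulb, with 2 deep UMIs, and for glula, with 14. The cells with none of the 3 markers had the hepatocyte list at 107498 to 129096 CPM, so their fabp10a may be their own. Free RNA from cells other than hepatocytes was not considered.

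The mitochondrial got2b and the dehydrogenases did not share the pattern of got2a. got2b was above the brought number in the c1qb class of all 3 libraries, with 27 UMIs beside 7.33 in HepABC, 16 beside 5.57 in CreLox and 14 beside 2.95 in no HCC, and in 7 of 12 cases in all. glud1b was above it in 7 of 12, including the c1qb class of every library (132 beside 84.8 in HepABC, 118 beside 92.3 in CreLox, 85 beside 43.2 in no HCC). Its paralog glud1a, not one of the 7, was further above, with 101 UMIs in the c1qb class of HepABC beside 5.77, 29 in CreLox beside 3.43 and 31 in no HCC beside 0.874. None of these genes was particular to the c1qb class. In the tmem88a class glud1a had 18 UMIs in CreLox beside 1.70 and 28 in no HCC beside 0.488. The ccl38.6 class had 141 of glud1b in no HCC beside 74.5 and 24 of got2b in CreLox beside 7.84. Reads of glud1a and glud1b, and of got2a and got2b, may have been split by the counting. gpt2l is annotated differently in the tables at hand, where its symbol was not matched, and a gene called gpt2 was listed beside it with at most 19 UMIs in a library.

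**Figure D5:**
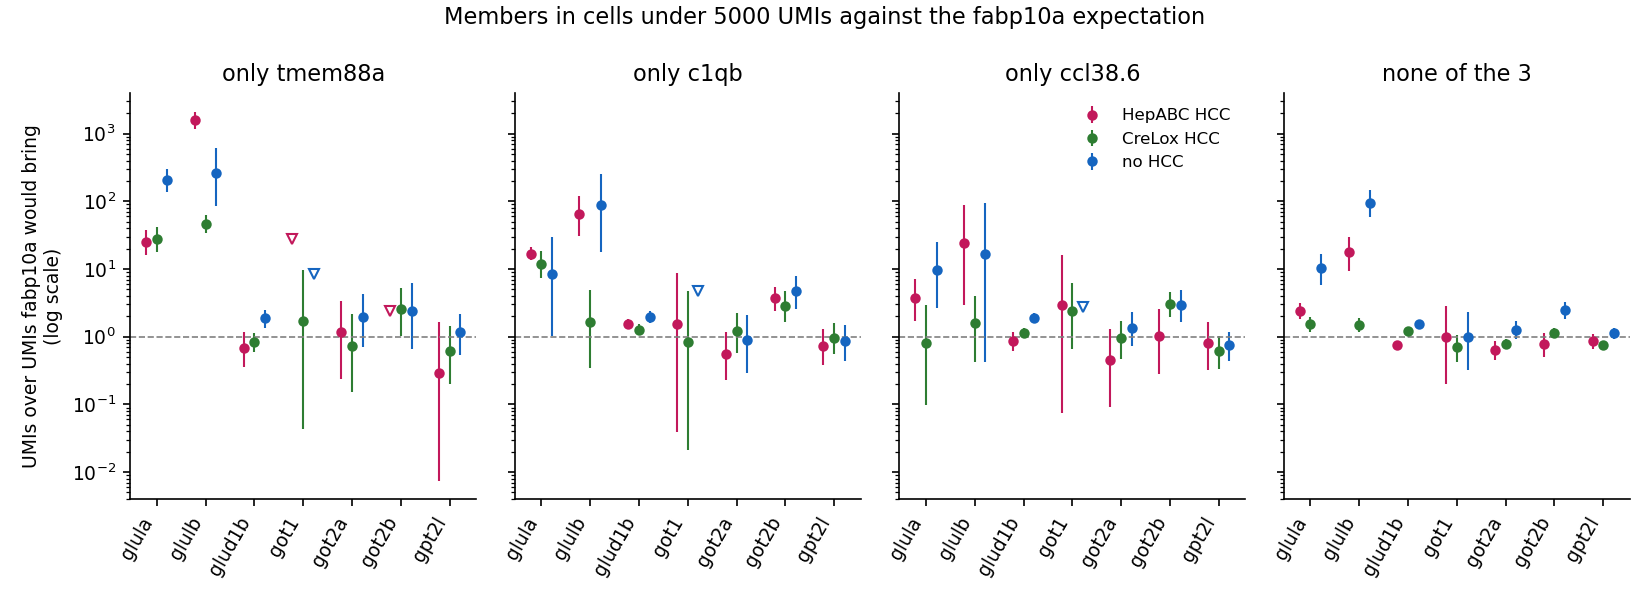
UMIs of each gene over the UMIs that fabp10a would bring (log scale), in the 4 classes of cells under 5000 UMIs. Points are libraries, lines are exact 95% intervals of the counts, open triangles are upper limits where a gene had 0 UMIs, and the dashed line is at 1. In the tmem88a panel glula and glulb stand far above the line in all 3 libraries, while got2a and gpt2l lie on it within their intervals.

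Over the 15 points made of 5 classes by 3 libraries, the gene whose log2 level was most like that of glula was itga5, an integrin chain, with a Pearson r of 0.916. It was followed by vaspb (0.899), krt8 (0.886), tcp11l2 (0.884) and ppiab (0.876), out of 7437 genes. itga5 had 63.7 CPM in the tmem88a class of HepABC, 48.9 CPM in CreLox and 18.4 CPM in no HCC. These levels rest on few UMIs, as the class held 47128 UMIs of all genes in HepABC. Only through the tmem88a class, where glula was also highest, did itga5 reach the minimum mean of 5 CPM. Its rank therefore does not show a likeness to glula over the other classes. itga5 was at 0 CPM in the ccl38.6 class of CreLox and in the c1qb and ccl38.6 classes of no HCC. For got2a the most alike were cbln9 (0.925), hgd (0.892), etnppl (0.889), fetub (0.870) and mpc1 (0.868), of which hgd encodes an enzyme of tyrosine breakdown and mpc1 a part of the mitochondrial pyruvate carrier. The points share libraries, depth and hepatocyte RNA, so these values are descriptions.

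Around these enzymes, 68 other genes of glutamine and glutamate use and transport were looked up, of which 41 were listed in both libraries of each comparison. For HepABC over no HCC, 7 of the 40 with enough UMIs had a ratio of 2 or more and 7 were counted at 0.5 or less, beside 28.4% and 11.2% of all genes, and the median log2 ratio was 0.29 beside 0.41 over all genes. Of the lower genes, slc25a22a had 14 UMIs in HepABC and 0 in no HCC. It was counted as lower only because 0 was set to 3 counts in the smaller library, so it was not seen to be lower. For CreLox over no HCC the counts were 5 and 2 of 34, beside 29.9% and 3.03% of all genes, with a median of 0.40 beside 0.59. TMM scaling turned this split to 1 higher and 5 lower. For HepABC over CreLox the counts were 2 and 7 of 40, beside 12% and 16.5%, with a median of 0.18 beside -0.07. Of the 5 named higher genes of the first comparison, 2 use glutamine to build pyrimidines. cad had 13.3 CPM in HepABC and 3.96 CPM in no HCC (ratio 3.35, 1.98 to 6.16), and ctps1b had 223 UMIs in HepABC and 0 in no HCC, at least 6.03-fold higher against 3 counts in that library.

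Glutamate dehydrogenase glud1a had 46.6 CPM in HepABC and 14.4 CPM in no HCC (3.23, 2.44 to 4.35), and 29.7 CPM in CreLox (2.05 over no HCC, 1.48 to 2.88). The mitochondrial aspartate/glutamate carrier slc25a12 was at 2.77 (1.38 to 6.48) and the glutamate transporter slc1a3a at 2.68 (2.18 to 3.34) for HepABC over no HCC. The lowest ratio among the named genes was that of bcat1, the cytosolic branched-chain aminotransferase, with 1.38 CPM in HepABC and 6.30 CPM in CreLox, against 21.0 CPM in no HCC. Its ratios to no HCC were 0.0658 (0.0460 to 0.0937) and 0.3005 (0.191 to 0.463). prodha, which starts the breakdown of proline to glutamate, had 1.31 CPM in HepABC and 2.64 CPM in CreLox, against 6.80 CPM in no HCC. Between the HCC livers, the ratio of HepABC to CreLox was 2.52 for ctps1b (1.35 to 5.33) and 0.470 for its paralog ctps1a (0.329 to 0.685). It was 2.40 for pycr1a, an enzyme of proline synthesis, with an interval that held 1 (0.905 to 9.02).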

How the data were processed

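The authors deposited counts of UMIs per gene and cell, without normalization, for 1 library per group. Per their methods, Cell Ranger (2.2.0 in the submitters' processing notes) had aligned reads to GRCz11 with Ensembl annotation and the Xenopus β-catenin sequence, EmptyDrops had separated cells from empty droplets, and cells of outlying quality had been removed. Free RNA was left in, which genes are listed differs between libraries for a reason not given in the sources used here, and a gene not listed has no value. No cells were removed here, and no doublet caller was run.

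UMIs were summed over cells and divided by the total UMIs of the same cells (CPM). Intervals are exact Poisson for levels, Clopper-Pearson for shares and conditional for ratios, at 95%, and a count of 0 was given a limit of 3 counts. Classes under 5000 UMIs rest on 1 UMI of a marker, and cells from 5000 up to 10000 UMIs were kept apart. Cells were thinned without replacement, to 10000 UMIs (deep) or 1000 UMIs (shallow, with shallower cells left out), at seed 1. In comparisons over all genes, genes with at least 10 UMIs in 1 of the 2 sums were kept, and a ratio of 2 or more or of 0.5 or less counted as past the fold. A count of 0 was set to 3 counts, so a gene seen only in the larger sum could count as higher in the smaller one. TMM factors were computed with edgeR 4.0.16 on 11233 genes for an alternative. Python 3.11.15, numpy 2.4.6, scipy 1.17.1, pandas 2.3.3, matplotlib 3.10.9 and R 4.3.3 were used, and the ratio code was tested on simulated data. The genes of the group, the pathway list and the marker lists were chosen with earlier results of these data known.

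Named were all 7 genes, at most 5 pathway genes per direction and comparison among those past the fold with at least 50 UMIs in 1 library, and the 5 genes with the highest correlation of log2(CPM + 1) with glula or got2a among those with a mean of at least 5 CPM. glud1a and gpt2 were also named beside their paralogs in the comparison of classes. Alternatives were other depth limits, other totals and scalings, per-cell means, thinning, 2 UMIs of a marker, classes from marker lists and other minimum counts. No sequences are shown, and the annotation at hand was of another assembly (GRCz12tu), so no coordinates are given.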

Additional observations from a re-analysis of the deposited data

How the results depend on the processing

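No paired analysis was possible because each group had 1 library, and for the same reason no replicate could be left out. The ratios of glula between deep cells kept their direction under all 9 other settings. With deep cells from 5000 UMIs, which lets in cells with 3 or more stellate genes, the ratio to no HCC was 3.32 for HepABC and 1.57 for CreLox. HepABC over CreLox was 4.13 from 20000 UMIs, 1.84 with the mean of per-cell CPM, 1.80 after thinning, 3.30 with fabp10a at 1% or more and 4.09 without cells of 2 or more stellate genes. The last 2 settings were chosen after seeing the data. The glulb ratio of HepABC to no HCC was reversed from 5000 UMIs, at 0.578 against 2.19, which rested on 2 UMIs in no HCC. For the tmem88a class over cells with none of the 3 markers, glula was 2.36 in CreLox under 3000 UMIs, 9.98 in HepABC under 10000 UMIs and 4.18 in CreLox with per-cell means. The cause of these moves was not tested.

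In the pathway list, a minimum of 50 UMIs left 2 lower genes for HepABC over no HCC, 1 higher and 1 lower for CreLox over no HCC and 3 lower for HepABC over CreLox, with fewer genes tested. TMM scaling gave 1 higher and 5 lower for CreLox over no HCC, so the split turned round, and 5 higher and 9 lower for HepABC over no HCC. Over all settings, 10 of 48 ratios of glula, 6 of 18 pathway counts, 37 of 288 ratios of other genes and classes (beside the 1 that reversed), 130 of 888 CPM values and 167 of 231 percents moved outside their first interval (counts, by over 1.5 times). Depth limits the c1qb class of no HCC and the ccl38.6 class of CreLox, with 2 glula UMIs each, and glulb in deep cells of no HCC, with 2 UMIs.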

Other observations

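Among cells under 5000 UMIs assigned by the cholangiocyte list, a set named only from that list, glulb was highest in no HCC. It had 10 UMIs in 28 cells of no HCC, 154 CPM (73.8 to 283), against 8 UMIs in 98 cells of CreLox, 36.2 CPM (15.6 to 71.3), and 1 UMI in 21 cells of HepABC, 15.8 CPM (0.399 to 87.9). The intervals of no HCC and HepABC overlapped. A like level was seen in cells assigned by the erythrocyte list, with 112 CPM in no HCC (45.0 to 231, 7 UMIs) and 114 CPM in CreLox (13.8 to 412, 2 UMIs). glula in the cells of the cholangiocyte list was 31.6 CPM in HepABC, 27.1 CPM in CreLox and 30.8 CPM in no HCC. glud1a in these cells was 126 CPM in HepABC (8 UMIs), 45.2 CPM in CreLox (10 UMIs) and 354 CPM in no HCC (23 UMIs). The cholangiocyte list did not mark like cells in each liver. Of deep cells, 88.1% in HepABC and 64.5% in CreLox had 2 or more of its genes, against 2.35% in no HCC, where cldn15la was not listed. In the assigned set glud1b was 773 CPM in HepABC, 940 CPM in CreLox and 277 CPM in no HCC. The livers may thus be compared over unlike cells. Cells assigned by the lymphocyte list had 0 glula UMIs in HepABC and CreLox and 1 in no HCC, in 26, 162 and 151 cells. glud1a was at 185 CPM in cells of the macrophage list of HepABC, 87.2 CPM in CreLox and 124 CPM in no HCC. The cells with 3 or more stellate genes had glud1a at 154, 179 and 190.0 CPM in HepABC, CreLox and no HCC.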
